A study of Macaca mulatta with 24 samples.

Results

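The genes described here encode the subunits of the oxidative phosphorylation complexes, in the whole blood of rhesus macaques before and after 4 Gy of total body irradiation. They were found by a rule on gene names: every probe, controls aside, whose gene name began with NDUFA, NDUFB, NDUFC, NDUFS or NDUFV and a number, with UQCR, with COX4 to COX8, or with ATP5, or was SDHA, SDHB, SDHC or SDHD. This gave 121 probes of 66 genes, among 43603 non-control probes and 15527 named genes on the array. Each gene was read from its brightest probe. A probe entered the tests where at least 4 of the 24 arrays read it well above background, which held for 63 of the 66 genes. The other 3 were COX4I2, not well above background on any array, and NDUFB1 and NDUFA4L2, each well above background on 2 arrays.

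Oxidative phosphorylation is the last stage of respiration in mitochondria. Complex I (NADH dehydrogenase) and complex II (succinate dehydrogenase) pass electrons to ubiquinone, complex III hands them to cytochrome c, complex IV (cytochrome c oxidase) passes them to oxygen, and complex V (ATP synthase) uses the proton gradient to make ATP. Most subunits are encoded in the nucleus and a few in mitochondrial DNA, and only a minority carry the catalytic centres, while the small accessory subunits hold the complexes together. In blood, lymphocytes, monocytes and platelets keep mitochondria, neutrophils keep few, and reticulocytes lose theirs as they mature into red cells.

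The samples came from adult Chinese-origin rhesus macaques, males for animals 1 to 4 and females for animals 5 to 7, with RNA taken from whole blood and depleted of globin transcripts. One-colour rhesus arrays were hybridised with 7 pre-irradiation samples (0 Gy) and, after 4 Gy, with 4 samples of day 3, 6 of day 5 and 7 of day 7. The labels name X-rays and give the pre-irradiation sample day 0, whereas the methods of the study name cobalt-60 gamma rays and a sample drawn before the day of exposure. All groups were the same animals, no unirradiated animal was sampled alongside them on these arrays, and time in the study can therefore not be told apart from irradiation.

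The arrays lay on 6 slides and were scanned in 2 sessions. The first session held 6 pre-irradiation and 6 day 7 arrays, and the second held all day 3 and day 5 arrays with 1 pre-irradiation and 1 day 7 array, both of animal 5. The day 7 comparison was thus balanced over sessions, and the day 3 and day 5 comparisons were nearly the same split as the sessions. Day 7 replicate 2 was dim, with a median processed signal of 16.7 against 30.9 to 106 on the others. Between 48.3% and 61.2% of probes were well above background on an array, and no probe of a subunit gene was saturated. Markers of blood cells were present: each T cell, NK cell, monocyte, neutrophil, erythroid and platelet marker with a probe was well above background on some arrays, as were 12 of 14 B cell markers, PAX5 and TNFRSF13C being the exceptions.

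Probe sequences are shown for 3 genes among those with lower signal after irradiation, to let the measured stretch be seen; all are coding stretches, in rheMac2 coordinates from the scanner output. The probes of SDHC and UQCRH end on the stop codon, given in capitals.
SDHC, chr1:139972541-139972600, plus strand: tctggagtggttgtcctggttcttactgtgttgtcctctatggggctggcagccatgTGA
NDUFA2, chr6:137046936-137046995, minus strand: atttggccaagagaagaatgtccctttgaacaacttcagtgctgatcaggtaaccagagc
UQCRH, chr1:49247050-49247109, plus strand: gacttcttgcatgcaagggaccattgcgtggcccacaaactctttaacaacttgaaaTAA

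After irradiation, every subunit gene that passed the test was lower and none was higher. A gene is called lower or higher here when limma's moderated test, fitted over all tested probes, gave a Benjamini-Hochberg adjusted p under 0.005. At day 3, 5 of 63 genes were lower (7.94%), against 8.08% of all probes tested. By day 5, 13 were lower (20.6%), against 9.61% of all probes, and by day 7, 12 were lower (19.0%), against 7.29%. Among all probes, 5.47%, 7.15% and 3.6% were called higher on days 3, 5 and 7. The day 3 share of the subunit genes thus lay near that of all probes, and the later shares lay above it. With the animal as a block, 1, 7 and 6 subunit genes were lower on days 3, 5 and 7 (1.59%, 11.1% and 9.52%), against 1.58%, 9.33% and 6.05% of all probes, so that the day 5 share then lay close to that of all probes. With the scan session as a block, 0, 0 and 10 were lower, against 0.0998%, 1.27% and 7.3% of all probes. Quantile normalization left 3, 8 and 5 of 63 subunit genes called on the 3 days, against 7.54%, 8.44% and 4.88% of all probes. Normexp background correction left 1 on each day, against 0.651%, 0.952% and 1.22% of all probes.

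Most genes that missed the threshold had negative changes too. The log2 change was below 0 for 52, 59 and 54 of the 63 genes on days 3, 5 and 7. Over the 63 genes the median log2 change was −0.38, −0.43 and −0.44, against 0.01, 0.02 and 0.02 over all tested probes. Quantile normalization left 47, 46 and 40 genes with negative changes and medians of −0.32, −0.22 and −0.18, against 0.02, 0.05 and 0.09 over all probes, and turned the sign of several genes that were not called, SDHA, SDHB, UQCRC2, COX4I1, NDUFS1 and NDUFS3 among them on 1 or more days. In 13, 9 and 9 genes every later array lay below every pre-irradiation array, against 12.4%, 8.61% and 5.93% of all probes. Since RNA was taken from whole blood, fewer cells of a type and less RNA per cell cannot be told apart in any of these values.

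**Figure D1:**
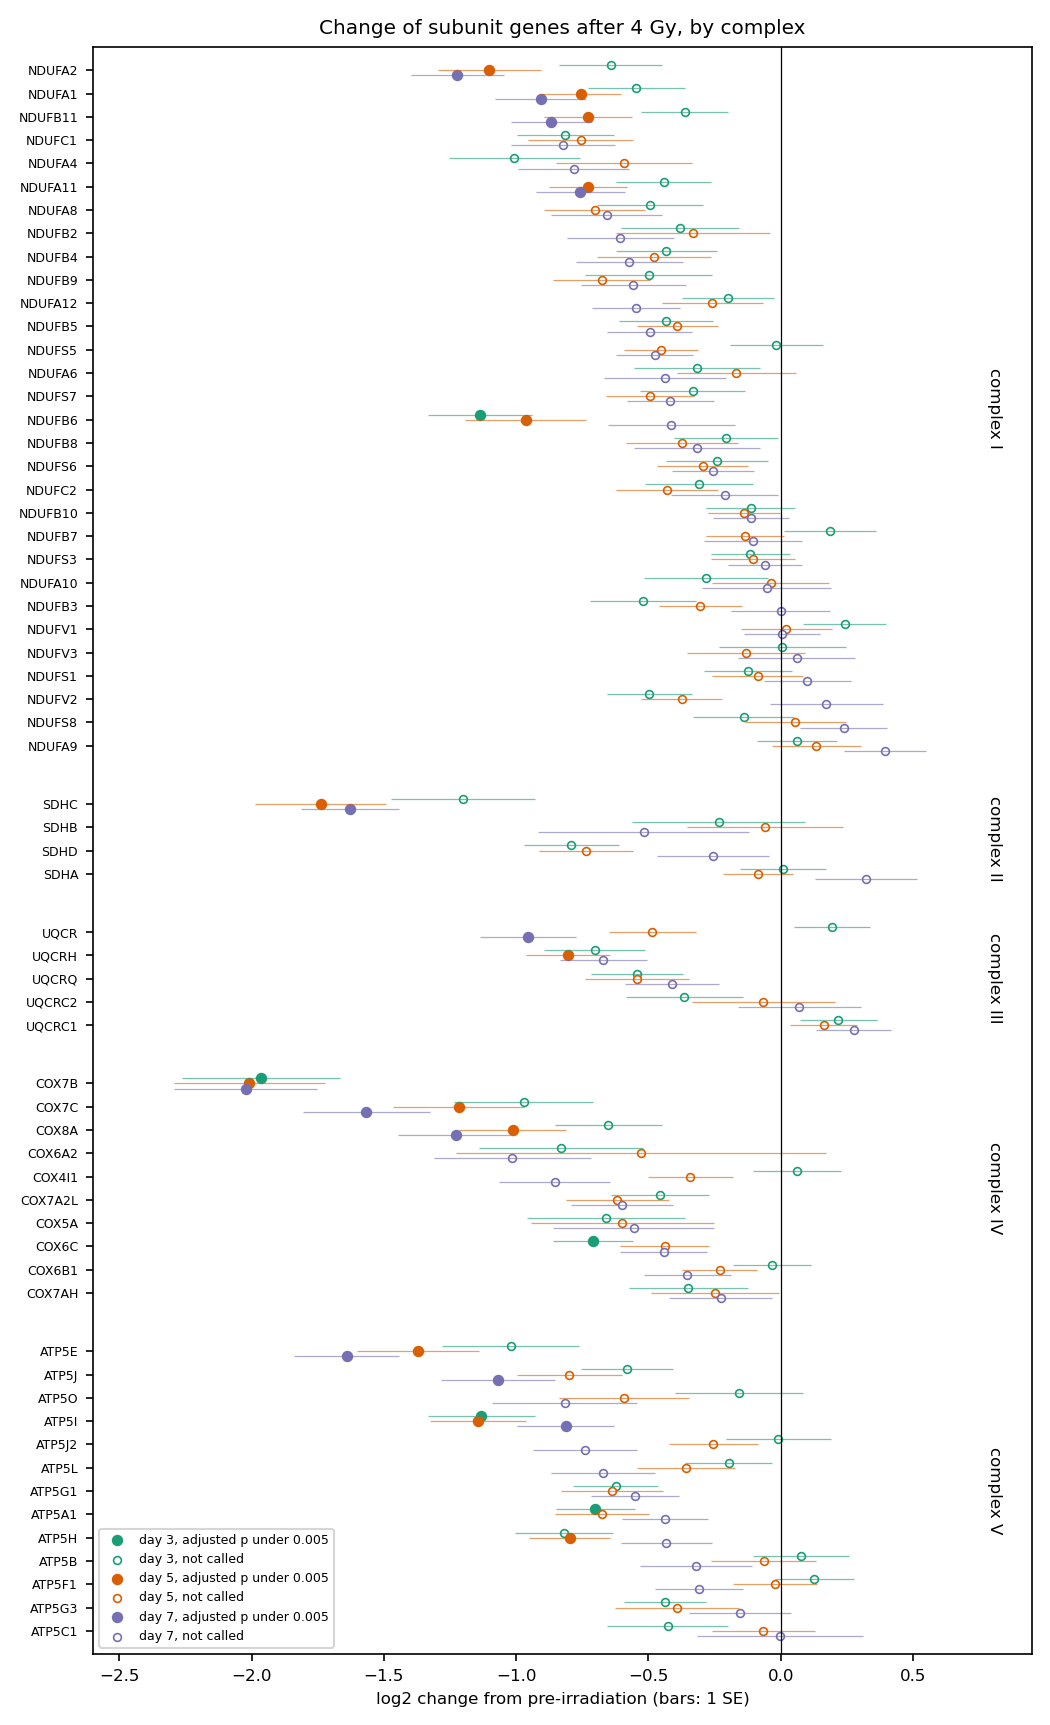
The log2 change from pre-irradiation of the tested subunit genes, except 1 not reported here, is plotted on the horizontal axis, with bars of 1 SE, for day 3, day 5 and day 7, in the order of the complexes. Filled points passed the threshold, and all of them lie left of 0; the farthest left on each day is COX7B.

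The arrays did not all lie equally low. Taking for each array the median difference of the 63 genes from their pre-irradiation means, the 7 pre-irradiation arrays ran from −0.20 to 0.21 on the log2 scale. The 4 day 3 arrays were at −0.13, −0.53, −0.55 and −0.37. At day 5 the arrays ran from −0.74 to 0.01 with a median of −0.53, and at day 7 from −0.90 to −0.01 with a median of −0.41. Day 3 replicate 1, day 5 replicates 3 and 4 and day 7 replicate 4 lay within the range of the pre-irradiation arrays, and animal 2 was the lowest at day 5 and day 7.

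All 5 complexes had negative medians on each day, and the size differed between them. Complex IV had the lowest median at day 3 and day 7, −0.66 and −0.73 over 10 genes, with −0.56 at day 5. Complex V had −0.44, −0.59 and −0.55 over 13 genes, the lowest median at day 5. Complex I stood at −0.32, −0.37 and −0.41 over 31 genes and complex III at −0.36, −0.48 and −0.41 over 5. Complex II had medians of −0.51, −0.41 and −0.39 over 4 genes that spread widely, and the last was −0.11 without the dim day 7 replicate 2. Genes called lower on days 3, 5 and 7 numbered 1, 5 and 4 in complex I, 0, 1 and 1 in complex II, 0, 1 and 1 in complex III, 2, 3 and 3 in complex IV, and 2, 3 and 3 in complex V. Set beside the 8.08%, 9.61% and 7.29% of all probes, complex I had 3.23%, 16.1% and 12.9% of its genes called, complex IV 20%, 30% and 30% and complex V 15.4%, 23.1% and 23.1%, while in complexes II and III each call is 1 gene of 4 or 5. Under the animal block the counts were 0, 1 and 1 of 31 in complex I (3.23% on each later day, under the 9.33% and 6.05% of all probes), 0, 2 and 1 in complex II, 0 on every day in complex III, 1, 2 and 3 in complex IV, and 0, 2 and 1 in complex V. Differences between complexes were not tested, and the order is a description of these genes.

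**Figure D2:**
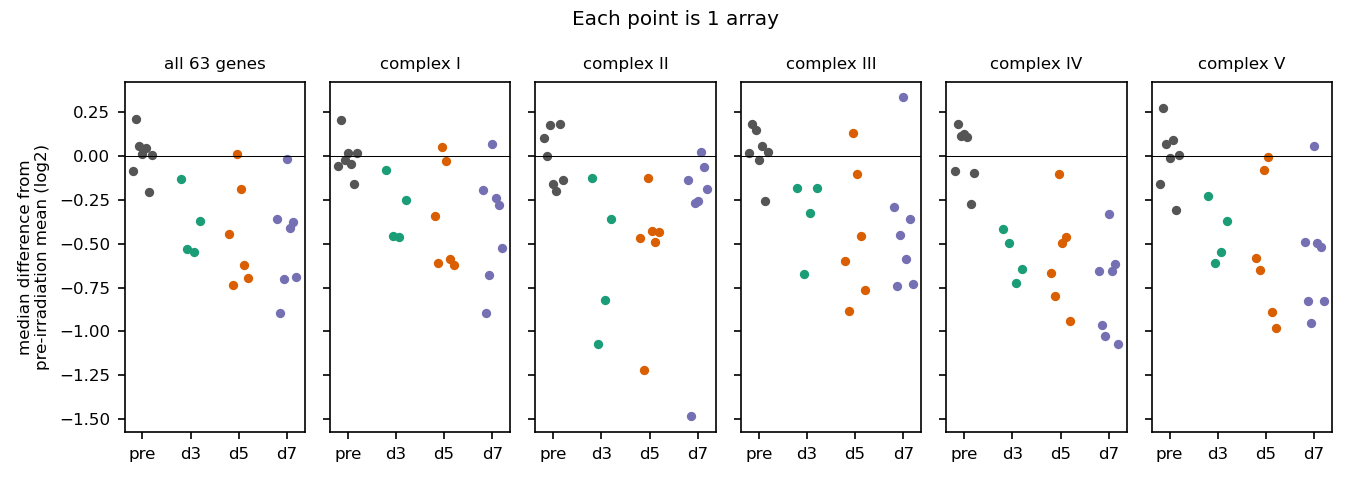
Each point is 1 array, at the median difference of its genes from their pre-irradiation means on the log2 scale, for all 63 genes and for each complex. The complex IV medians of all day 7 arrays, −1.07 to −0.33, lie below those of all pre-irradiation arrays, −0.27 to 0.18, while those of the other 4 complexes overlap.

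In complex I, the nuclear core subunits, which carry the flavin, the iron-sulfur clusters and the ubiquinone site, were not called on any day. Their median changes over 7 genes were −0.12, −0.09 and 0.01. With 8.08%, 9.61% and 7.29% of all probes called lower, 7 genes are too few to set 0 calls apart from those shares. NDUFV1, the NADH-binding subunit, ran from 13.81 to 14.40 on the pre-irradiation arrays (median 14.16, normalized log2 signal), was 14.16, 14.28, 14.54 and 14.47 at day 3, and ran from 13.67 to 14.56 (median 14.11) at day 5 and from 13.74 to 14.33 (median 14.17) at day 7, so that all groups overlapped. NDUFS1, the largest core subunit, changed by −0.12, −0.09 and 0.10, NDUFS3 by −0.11, −0.10 and −0.06, and NDUFS8 by −0.14, 0.06 and 0.24. NDUFV2 was at −0.50 at day 3 (adjusted p = 0.0313) and 0.17 at day 7, and NDUFS7 at −0.33, −0.49 and −0.42, without passing the threshold.

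The accessory subunits of complex I held all of its calls. In the membrane arm, 1, 4 and 3 of 17 genes were lower on days 3, 5 and 7, with medians of −0.43, −0.45 and −0.50. These are 5.88%, 23.5% and 17.6% of the genes, against 8.08%, 9.61% and 7.29% of all probes. Under the animal block 0, 1 and 0 of the 17 were called, shares below those of all probes in that fit, and whether accessory and core subunits differ was not tested. In the peripheral arm NDUFA2 alone was called, among 6 genes. NDUFA2 signal ran from 14.37 to 15.11 (median 14.75) before irradiation, was 14.58, 14.16, 13.84 and 14 at day 3, ran from 13 to 14.21 (median 13.76) at day 5 and from 13.09 to 14.05 (median 13.68) at day 7. No day 5 or day 7 array reached the lowest pre-irradiation array. The change was −0.64 ± 0.19 at day 3 (SE; adjusted p = 0.0235), −1.10 ± 0.20 at day 5 (adjusted p = 0.000764) and −1.22 ± 0.18 at day 7 (adjusted p = 0.000189), lower in 6 of 6 and 7 of 7 animals on the last 2 days. With the animal as a block the day 5 call was lost (adjusted p = 0.00693) and the day 7 call was kept (0.00187). With quantile normalization the changes were −0.83 and −0.81 on the last 2 days, and both passed.

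NDUFB6, a membrane-arm subunit, was called at day 3 and day 5 only. It ran from 12.19 to 12.97 (median 12.82) before irradiation, was 11.73, 11.36, 11.32 and 11.87 at day 3, and ran from 11.18 to 12.43 (median 11.59) at day 5 and from 11.70 to 13.35 (median 12.02) at day 7. The day 3 arrays were all below the pre-irradiation arrays, and the day 7 arrays spread over and past them. The log2 change was −1.14 ± 0.20 at day 3 (adjusted p = 0.00144), −0.96 ± 0.23 at day 5 (adjusted p = 0.00499) and −0.41 ± 0.24 at day 7 (adjusted p = 0.216). The day 3 call was lost with the animal as a block (adjusted p = 0.00923), the day 5 call was kept (0.00468), and with the scan session as a block the changes were −0.62 and −0.45. NDUFA1, NDUFA11 and NDUFB11, also of the membrane arm, were lower at day 5 by −0.76, −0.73 and −0.73 and at day 7 by −0.91, −0.76 and −0.87, in every animal measured on both occasions. None of these 3 genes kept its call on either day with the animal as a block, where adjusted p was 0.00693, 0.0115 and 0.0275 at day 5 and 0.00651, 0.0199 and 0.00587 at day 7. Quantile normalization gave −0.40, −0.62 and −0.46 at day 5 and −0.38, −0.58 and −0.43 at day 7, with only NDUFA11 at day 5 called. NDUFA4, named for complex I but now placed in complex IV, had changes of −1.01, −0.59 and −0.78 (adjusted p = 0.00894, 0.0858 and 0.0129).

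In complex II, SDHC was the only gene called of the 4 tested. SDHC, an anchor that holds part of the heme and ubiquinone sites, ran from 9.10 to 10.09 (median 9.41) before irradiation, was 9.06, 7.53, 8.37 and 8.42 at day 3, and ran from 7.10 to 8.55 (median 7.79) at day 5 and from 7.31 to 8.31 (median 7.93) at day 7. Every later array was below every pre-irradiation array, replicate 1 at day 3 by the smallest margin. The change was −1.20 ± 0.27 at day 3 (adjusted p = 0.00588), −1.74 ± 0.25 at day 5 (adjusted p = 0.000154) and −1.63 ± 0.19 at day 7 (adjusted p = 3.17e-05), so that day 7 signal was 32.4% of the pre-irradiation signal. Both later calls held with the animal as a block (adjusted p = 0.000942 and 0.000333), and within the first scan session alone the day 7 change was −1.63 (adjusted p = 0.000254). Normexp background correction reduced the changes to −0.89 at day 5 and −1.01 at day 7 and lost both calls (adjusted p = 0.0261 and 0.00695), and the day 5 call was also lost with the scan session as a block (−1.61, adjusted p = 0.0727).

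The other anchor, SDHD, changed by −0.79, −0.73 and −0.26 (adjusted p = 0.00605, 0.00561 and 0.396), the last being −0.08 without the dim day 7 replicate 2. With the animal as a block its day 5 change was −0.81 (adjusted p = 0.00323), which passed the threshold. SDHA, the flavoprotein that oxidises succinate, changed by 0.01, −0.09 and 0.32, and the day 7 arrays, from 12.93 to 14.06, overlapped the pre-irradiation arrays, from 12.76 to 13.34. The other SDHA probes, all dimmer, had positive changes on every day and were not called. Among them, 1 was at 0.70, 0.61 and 0.43 (adjusted p = 0.00845, 0.00633 and 0.13). SDHB, the iron-sulfur subunit, changed by −0.23, −0.06 and −0.52, the last being −0.14 without the dim day 7 replicate 2. Neither SDHA nor SDHB was called on any day.

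In complex III, the core proteins UQCRC1 and UQCRC2 were not called. UQCRC1 changed by 0.22, 0.16 and 0.28, and UQCRC2 by −0.36, −0.07 and 0.07. UQCRH, the hinge protein at the cytochrome c1 side, changed by −0.70 ± 0.19, −0.80 ± 0.16 and −0.67 ± 0.17, and was called at day 5 (adjusted p = 0.00155), when its 6 arrays, from 11.95 to 12.70, were all below the pre-irradiation arrays, from 12.83 to 13.30. This call was lost with the animal as a block (adjusted p = 0.00605).

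UQCR, a small accessory subunit, was called at day 7 alone. It ran from 14.94 to 15.42 (median 15.31) before irradiation, was 15.50, 15.30, 15.37 and 15.62 at day 3, and ran from 14.36 to 15.39 (median 14.72) at day 5 and from 13.64 to 14.81 (median 14.44) at day 7. The day 3 arrays lay in the upper part of the pre-irradiation range or above it, and the day 7 arrays lay wholly below it. Its change was 0.19 ± 0.14 at day 3 (adjusted p = 0.309), −0.48 ± 0.16 at day 5 (adjusted p = 0.0339) and −0.96 ± 0.18 at day 7 (adjusted p = 0.00147), the last of which did not pass with the animal as a block (adjusted p = 0.00927). Alternative settings gave day 7 changes from −1.09 to −0.47 for UQCR, and 13 of 21 kept the call.

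Complex IV held the gene with the lowest change on all 3 days. COX7B, a small nuclear-encoded subunit on the X chromosome, ran from 11.61 to 13.20 (median 12.07) before irradiation, was 9.98, 10.57, 10.61 and 10.38 at day 3, and ran from 9.91 to 11.25 (median 10.23) at day 5 and from 9.74 to 11.20 (median 10.19) at day 7. No later array overlapped the pre-irradiation arrays, and the level was lower in 4 of 4, 6 of 6 and 7 of 7 animals. The change was −1.96 ± 0.30 at day 3 (adjusted p = 0.000762), −2.01 ± 0.28 at day 5 (adjusted p = 0.000148) and −2.02 ± 0.27 at day 7 (adjusted p = 9.51e-05), 4.06-fold lower at day 7. All 3 calls were kept with the animal as a block (adjusted p = 0.00318, 0.000698 and 0.000294). With the scan session as a block the changes were −1.61 at day 3 and −1.65 at day 5 (adjusted p = 0.121 and 0.103), and −2.02 at day 7 (adjusted p = 9.6e-05).

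COX7C, another small subunit, was called at day 5 and day 7. Its signal ran from 14.22 to 15.56 (median 15.06) before irradiation, was 14.49, 13.57, 13.87 and 14.37 at day 3, and ran from 13.10 to 14.38 (median 13.82) at day 5 and from 12.70 to 14.23 (median 13.51) at day 7. Changes were −0.97 ± 0.26, −1.22 ± 0.25 and −1.57 ± 0.24 (adjusted p = 0.0143, 0.00194 and 0.000281), and the highest array of each later day overlapped the lowest pre-irradiation array. COX8A changed by −0.65 ± 0.20, −1.01 ± 0.20 and −1.23 ± 0.22 (adjusted p = 0.0259, 0.00172 and 0.000908). With the animal as a block COX7C kept both calls (adjusted p = 0.0021 and 0.001), and COX8A kept that of day 7 (0.0028) but not that of day 5 (0.00903). With quantile normalization COX8A was at −0.70 and −0.75 (adjusted p = 0.00728 and 0.0125) and COX7C at −0.91 and −1.13 on days 5 and 7, where COX7C kept both calls.

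COX6C was called at day 3 only, at −0.71 ± 0.15 (adjusted p = 0.00431; 0.0353 with the animal as a block), with −0.44 on both later days. COX4I1, the large nuclear subunit that carries regulatory sites, changed by 0.06, −0.34 and −0.85 (adjusted p = 0.799, 0.114 and 0.00776), and its 7 day 7 arrays, from 16.08 to 17.50, were all below the pre-irradiation arrays, from 17.52 to 18.12. COX5A changed by −0.66, −0.60 and −0.56 with none called. Of the muscle forms, COX7AH was at −0.35, −0.25 and −0.23, and COX6A2 at −0.83, −0.53 and −1.01, with 1 day 5 array at 10.99 while the other day 5 arrays lay from 5.61 to 6.86.

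In complex V, the F1 head that makes ATP gave different results for its subunits. ATP5E, the small epsilon subunit of the central stalk, ran from 16.78 to 18.08 (median 17.50) before irradiation, was 16.97, 16.76, 16.16 and 16.36 at day 3, and ran from 15.65 to 16.74 (median 16.21) at day 5 and from 15.66 to 16.36 (median 15.94) at day 7. The day 5 and day 7 arrays lay below all pre-irradiation arrays. Changes were −1.02 ± 0.26, −1.37 ± 0.23 and −1.64 ± 0.20 (adjusted p = 0.0104, 0.0005 and 4.4e-05), and both later calls held with the animal as a block (adjusted p = 0.000918 and 0.00061). With quantile normalization ATP5E was at −0.82 at day 5, where the call was lost (adjusted p = 0.00582), and −0.84 at day 7, where it was kept (0.00259). ATP5A1, the alpha subunit, changed by −0.70 ± 0.15 at day 3 (adjusted p = 0.00425; 0.0245 with the animal as a block), −0.68 at day 5 and −0.44 at day 7. With quantile normalization these were −0.43, −0.20 and 0.31 (adjusted p = 0.0308, 0.36 and 0.126). ATP5B, the catalytic beta subunit, was at 0.08, −0.06 and −0.32, and ATP5C1, the gamma subunit of the stalk, at −0.43, −0.06 and −0.00, with none called. With quantile normalization ATP5B turned to 0.43 at both day 5 and day 7, and without day 7 replicate 2 ATP5C1 was at 0.27 at day 7.

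ATP5I, the membrane subunit e that takes part in dimer formation, was called on all 3 days. It ran from 14.85 to 15.67 (median 15.35) before irradiation, was 14.53, 14.39, 13.75 and 14.24 at day 3, and ran from 13.89 to 14.82 (median 14.18) at day 5 and from 13.92 to 14.95 (median 14.60) at day 7. The day 3 and day 5 arrays did not overlap the pre-irradiation arrays and the day 7 arrays did. Changes were −1.13 ± 0.20, −1.14 ± 0.18 and −0.81 ± 0.18 (adjusted p = 0.00172, 0.000323 and 0.00463), of which only that of day 5 held with the animal as a block (adjusted p = 0.014, 0.00158 and 0.0131). At day 7 ATP5I was called under 5 of the 21 alternative settings, with changes from −0.96 to −0.29. In the peripheral stalk, ATP5H was called at day 5 (−0.80, adjusted p = 0.00128; 0.00851 with the block) and ATP5J at day 7 (−1.07, adjusted p = 0.00217; 0.0115 with the block). The c-ring genes ATP5G1 and ATP5G3 had changes of −0.62, −0.64 and −0.55 and of −0.44, −0.39 and −0.15, and were not called; with quantile normalization the day 7 values were −0.15 for ATP5G1 and 0.35 for ATP5G3.

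**Figure D3:**
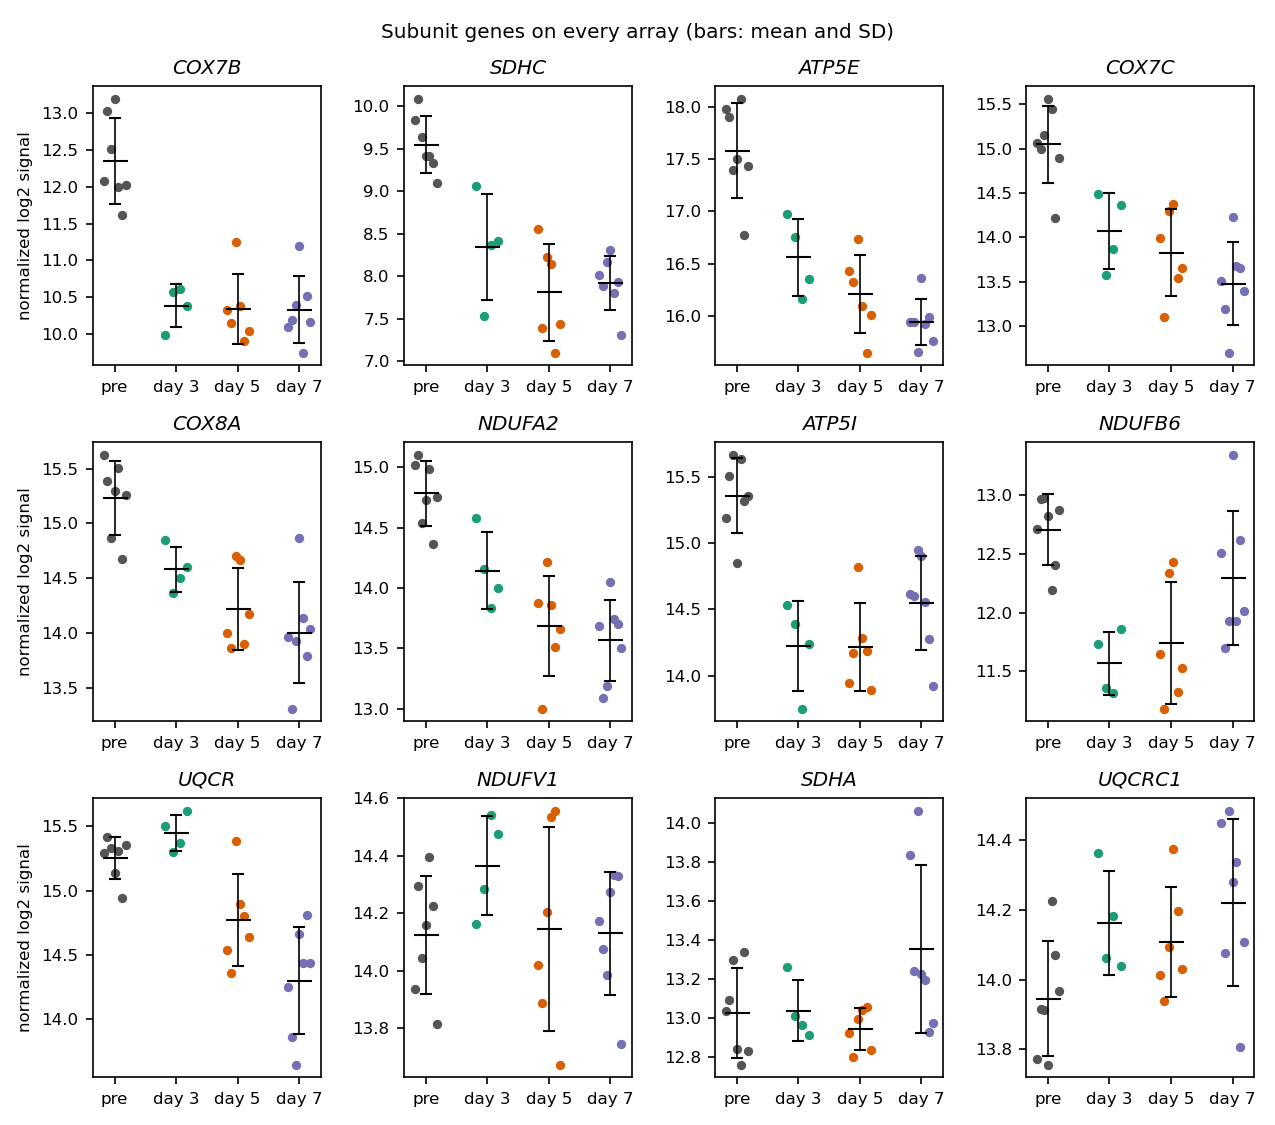
Normalized log2 signal of 12 subunit genes on each array, with the mean and SD of each group; each panel has its own axis. COX7B and SDHC lie lower on every later array, UQCR overlaps the pre-irradiation arrays at day 3 and lies below them at day 7, and NDUFV1, SDHA and UQCRC1 overlap across groups.

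The comparisons of the 3 days share the pre-irradiation arrays and are therefore not independent, so that genes called on several days are given as a description. The genes called at both day 5 and day 7 were ATP5E, ATP5I, COX7B, COX7C, COX8A, NDUFA1, NDUFA11, NDUFA2, NDUFB11 and SDHC. ATP5I and COX7B were the genes called on all 3 days, and 46 of 63 genes were called on none.

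Day 7 was also compared with day 3 directly. This comparison was nearly the same split as the scan sessions, with all 4 day 3 arrays in the second. Of the day 7 arrays, 6 were in the first session and 1 in the second. In limma 0 of 63 subunit genes passed the threshold, against 0.967% of all probes lower and 0.318% higher, and 10 had an unadjusted p under 0.05. UQCR had the lowest change, −1.15 ± 0.24 (adjusted p = 0.0101), lower in 4 of 4 animals, and it passed when all groups were fitted together. COX4I1 followed at −0.91 ± 0.27 (adjusted p = 0.0404), with every day 7 array below every day 3 array for both genes. NDUFB6 had the highest change, 0.72 ± 0.30 (adjusted p = 0.116), lower in 0 of 4 animals.

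Several genes were read by more than 1 probe. Of 34 genes with at least 2 tested probes, all probes of the gene had the same sign in 30, 30 and 29 on days 3, 5 and 7, and no gene had probes called in opposite directions. The SDHC probe ending on the stop codon changed by −1.74 at day 5 and −1.63 at day 7, and the next brightest SDHC probe by −1.99 and −1.61. RefSeq gives the accessions of the brightest SDHD and UQCRC2 probes, and of 1 dimmer probe named COX7C, to genes it calls LOC711326, LOC106996230 and LOC100429280, so these probes carry the array's gene names with that uncertainty. This COX7C probe changed by −1.56, −1.65 and −1.41 (adjusted p = 0.00122, 6.87e-05 and 0.000225). The second COX7B probe, much dimmer, changed by −0.94, −0.57 and −1.58 (adjusted p = 0.0554, 0.151 and 0.00543) and was not called. Genes called by another of their probes alone were COX7C, SDHC and UQCRH at day 3, ATP5L, COX6C, COX7A2L and NDUFS5 at day 5, and ATP5H at day 7. In ATP5L, 1 dim probe had changes of 0.05, 0.53 and 0.44, opposite to the other 3.

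**Figure D4:**
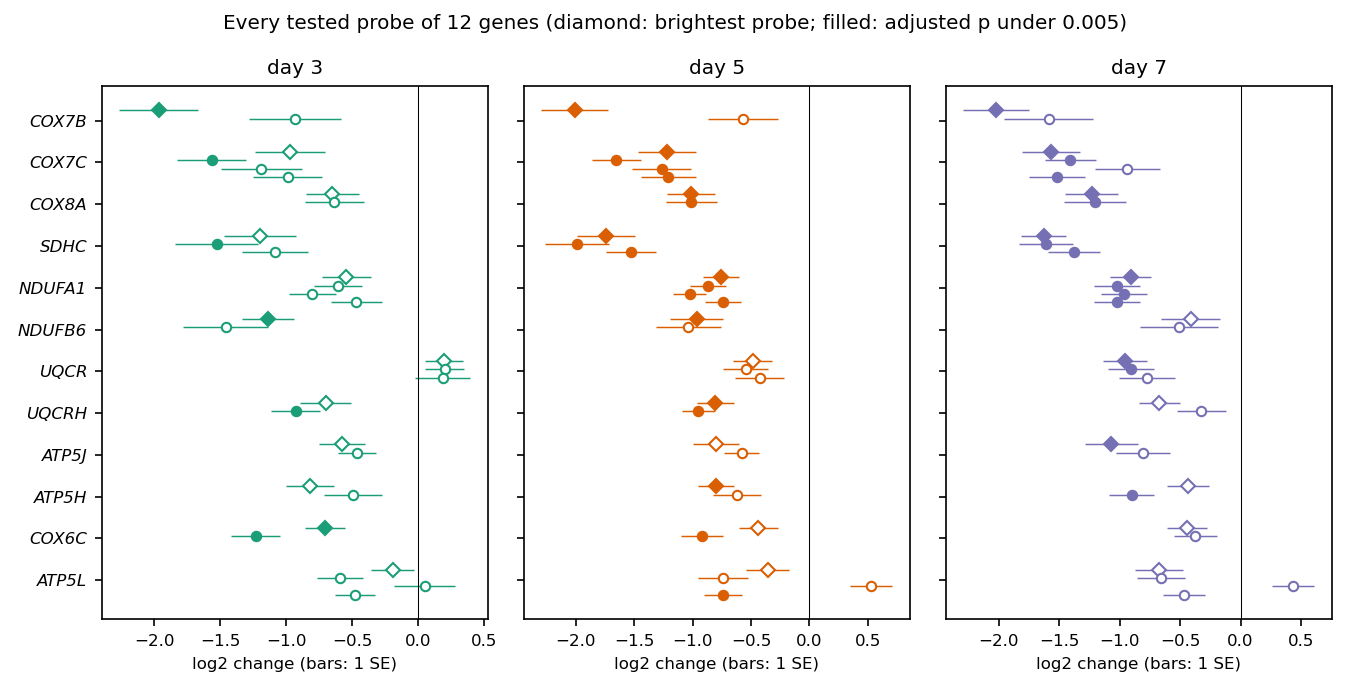
The log2 change with bars of 1 SE is given for every tested probe of 12 genes at day 3, day 5 and day 7; diamonds mark the brightest probe and filled symbols an adjusted p under 0.005. The probes of SDHC, COX8A and NDUFA1 lie close together, those of COX7B lie apart at day 5 (−2.01 and −0.57), and 1 ATP5L probe lies right of 0.

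The subunits that the naming rule leaves out include the 13 encoded by mitochondrial DNA, which include the membrane-arm core of complex I, cytochrome b of complex III, the catalytic core of complex IV and part of the proton channel of complex V. All 13 were on the array and tested, and 0, 2 and 6 of them were called lower by limma on days 3, 5 and 7 (12, 13 and 13 had negative changes), with medians of −0.38, −0.72 and −1.40. That is 0%, 15.4% and 46.2% of them, against 8.08%, 9.61% and 7.29% of all probes. Blocking on the animal gave 0, 0 and 6 calls, the day 5 calls of COX3 and ND4L being lost, and at day 7 CYTB and ND4L lost their calls while COX2 and ND3 gained them. At day 7 all 13 changes were negative, from −1.90 to −0.39. ND2, of the membrane arm of complex I, ran from 13.65 to 15.36 (median 14.94) before irradiation, was 14.13, 14.42, 15.03 and 13.42 at day 3, and ran from 12.82 to 14.16 at day 5 and from 12.13 to 13.81 (median 12.63) at day 7. The day 3 arrays stayed mostly within the pre-irradiation range, and the highest day 7 array overlapped its lower end. The change was −0.43, −0.94 and −1.90 (adjusted p = 0.429, 0.0421 and 0.000754).

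COX3, a core subunit of complex IV, ran from 18.48 to 19.17 (median 18.99) before irradiation, was 18.19, 18.58, 18.97 and 18.15 at day 3, and ran from 17.22 to 18.66 (median 17.79) at day 5 and from 17.29 to 18.28 (median 17.55) at day 7. All day 7 arrays lay below all pre-irradiation arrays. Changes were −0.43, −1.05 and −1.26 (adjusted p = 0.133, 0.00367 and 0.000244). ND4L was called at day 5 and day 7 (−1.28 and −1.42), and CYTB, ATP6 and ATP8 at day 7 (−1.40, −1.47 and −1.48). COX1 was at −0.38, −0.42 and −0.39, and no mitochondrially encoded subunit was called between day 3 and day 7, where the median was −1.06. Per array, the median of the 13 ran from −0.44 to 0.65 before irradiation and from −2.0 to −0.62 at day 7, and day 7 replicate 4, near 0 for the nuclear genes, was at −1.22.

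**Figure D5:**
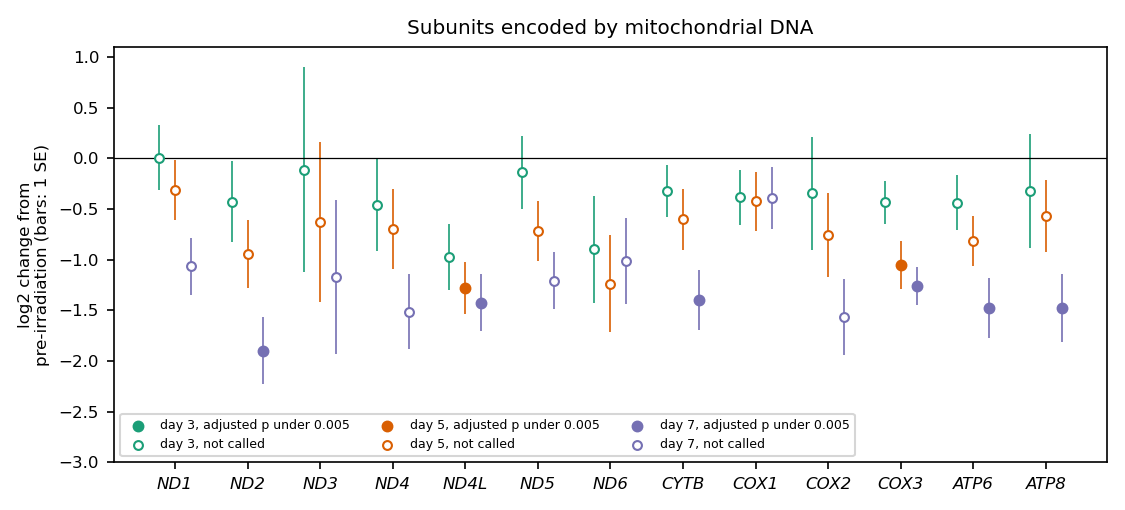
The log2 change from pre-irradiation of the 13 subunits encoded by mitochondrial DNA is plotted with bars of 1 SE, filled where the adjusted p was under 0.005. Day 7 values lie from −1.90 (ND2) to −0.39 (COX1), and no day 3 value passed the threshold.

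Other mitochondrial genes were read from lists, most of which held 1 or 2 calls a day. The lists of assembly factors, the citric acid cycle, carriers and regulators had 0% to 16.7% of their genes lower. Of all probes 8.08%, 9.61% and 7.29% were lower, and each call in these lists is 1 gene of 12 to 18. Of 12 tested assembly factors of complex I, 2, 2 and 1 were lower on days 3, 5 and 7 and none was higher; NDUFAF2, a factor for a late assembly step, changed by −2.84, −2.82 and −2.50, and NDUFAF4 was called at −1.41 and −1.17 on the first 2 days. Of 18 assembly factors of complexes II to V, 2, 1 and 1 were lower, among them COX11 and BCS1L at day 3 (−1.27 and −0.71) and COX14 at day 5 and day 7 (−0.82 and −0.77). In the citric acid cycle, 1 of 16 genes was lower on each day, DLST, a subunit of the oxoglutarate dehydrogenase complex (−1.66, −1.66 and −1.46), and PDHX was higher at day 7 (0.65). The list medians lay between −0.60 and −0.14 for assembly factors and between −0.22 and −0.16 for the cycle. Blocking on the animal gave lower counts of 1, 3 and 1 for the first list, 0, 1 and 0 for the second and 0, 2 and 1 for the third. NDUFAF2 kept its call on all 3 days, NDUFAF4 at day 5 and DLST at day 5 and day 7, while the calls of BCS1L, COX14 and PDHX and that of COX11 at day 3 were lost.

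Among 16 carriers and import proteins, 2, 1 and 2 were lower, with TIMM8B, an import chaperone of the intermembrane space, called on all days (−1.53, −1.34 and −1.47), TIMM50 at day 3 (−0.77) and SLC25A6, an ADP/ATP carrier, at day 7 (−0.75). Of 14 biogenesis regulators, 2, 1 and 0 were lower and 1, 1 and 0 higher. TWNK, the mitochondrial DNA helicase, was at −1.41 and −1.08 on days 3 and 5, TFB2M, a mitochondrial transcription factor, at −1.34 on day 3, and ESRRA, a nuclear receptor for respiratory genes, was higher at 0.89 and 0.96. Of 7 genes for the clearance of mitochondria and other organelles, 3, 3 and 2 were lower and 2, 2 and 0 higher. BNIP3L, which serves mitochondrial removal in reticulocytes, changed by −2.93, −3.89 and −3.65. Among 18 tested subunits outside the naming rule, the 13 above included, NDUFAB1, the acyl carrier subunit, was lower at day 3 (−1.31), CYC1, cytochrome c1, at day 5 (−0.71), and USMG5, a small ATP synthase protein, on all 3 days (−1.24, −1.13 and −1.24).

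When the animal was a block, 0, 1 and 1 carriers and import proteins were lower, the calls of TIMM50, SLC25A6 and, at day 3, TIMM8B being lost. No biogenesis regulator was called at day 3 in that fit, and at day 5 TWNK and TFB2M were lower and ESRRA higher. Of the clearance genes 2, 3 and 2 were lower and 0, 1 and 0 higher, and BNIP3L was called on all 3 days. NDUFAB1 lost its call, and USMG5 kept those of day 5 and day 7.

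Markers of several blood cells changed too, some lower and some higher. Of 17 tested erythroid markers, 9, 13 and 12 were lower on days 3, 5 and 7 and none higher, with medians of −2.48, −3.88 and −3.52, and their summed signal, on the log2 scale, ran from 19.67 to 20.79 on pre-irradiation arrays and from 17.87 to 18.83, 15.64 to 16.36 and 14.48 to 19.15 on those of the 3 later days. Day 7 replicate 4, where the median of the subunit genes was −0.01, had the highest mean erythroid level of the day 7 arrays, 11.36 against 8.00 to 10.71 on the others, while day 5 replicate 3, with a subunit median of 0.01, had 8.73 within the day 5 range of 8.37 to 9.31. The same day 7 array also had the highest mean B cell and T cell levels of day 7, 8.015 and 13.37. Its monocyte and neutrophil levels, 10.81 and 11.69, were the lowest of day 7. All 12 tested B cell markers were lower at day 3 and day 5, and 11 at day 7, with summed signal of 15.18 to 15.60 before and 11.21 to 12.44, 11.41 to 12.11 and 11.77 to 12.89 on the 3 days.

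Platelet markers were higher, 11, 3 and 0 of 11, with summed signal of 15.47 to 16.96 before and 18.58 to 19.36, 16.75 to 17.41 and 15.25 to 16.97 after. T cell markers were lower in 4, 2 and 0 of 15, with sums of 17.94 to 18.87 before and 16.99 to 17.64, 17.40 to 17.90 and 17.68 to 18.40 after. Monocyte markers were higher in 4, 4 and 1 of 11, with sums of 16.31 to 17.06 before and 17.18 to 17.68, 16.74 to 17.39 and 16.25 to 17.42 after, and neutrophil markers in 2, 3 and 3 of 13, with sums of 17.68 to 18.83 before and 18.67 to 20.03, 18.72 to 19.66 and 18.40 to 19.90 after. None of 11 NK and cytotoxic markers was called on these days (limma), their sums running from 18.36 to 19.21 before and from 18.39 to 19.79 after. Beside these counts, 8.08%, 9.61% and 7.29% of all probes were lower and 5.47%, 7.15% and 3.6% higher. With the animal as a block, 9, 13 and 10 erythroid and 12, 12 and 11 B cell markers were lower. T cell markers were then lower in 1, 2 and 0. Higher calls became 10, 5 and 0 for platelet, 2, 2 and 0 for monocyte and 0, 3 and 3 for neutrophil markers. Among the neutrophil markers at day 7, S100A8 was lost and MMP8 gained. The part of these cell types in the change of the subunit genes was not tested.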

How the data were processed

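Per the labels, whole-blood RNA was labelled with Cy3 and hybridised to rhesus 4 x 44K arrays (the methods of the study give a human design, but the scanner files list rhesus probes). The authors' scanner files hold the processed signal, a background-subtracted intensity (Feature Extraction 12.0.2.2 in the file headers, 10.7 in the submitters' processing notes). The deposited series matrix holds log2 values (18538 rows, array medians 7.36 to 7.7, normalized to the median array per the study's methods, any further scaling or centring not stated), used as an alternative for the 35 genes found there. Here log2 intensity was shifted per array to the median array (shifts −0.875 to 2.03) and spots marked as outliers were left out. Probes well above background on at least 4 arrays were tested (27112) with limma 3.58.1 in R 4.3.3, two-sided, each day with the pre-irradiation arrays alone and adjusted p under 0.005, after the study's threshold; the script was checked on simulated data. Other scalings, background corrections, filters, blocks and left-out arrays were tried.

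Replicate numbers name the animals: the deviations of same-numbered arrays from their group means correlated in all 17 pairs (0.129 to 0.458), other pairs lying from −0.306 to 0.264. Genes named with values were the catalytic and core subunits, tissue forms, and the called genes with the largest changes on each day and in each complex; the others were named after their values were seen. Members and lists were chosen with earlier results of these data known. Of 121 probes, 82 matched RefSeq (T2T-MMU8v2.0) by accession. P-values of the main fit measure the spread between arrays of a group, repeated samples of an animal being taken as independent. With the animal as a block they measure the spread of the change between animals. Some items are not reported here.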

Additional observations from a re-analysis of the deposited data

Results flagged for a closer look

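In each group of 6 or 7 arrays or of 4 arrays, the array farthest from its neighbour was compared with the range of the group (Dixon's test at 95%), over 164 groups of values; chance gives about 1 such value in 20 groups, and 11 were found. In single genes, ATP5C1 at day 7 replicate 2 was 6.09 against 7.68 to 8.56 on the other arrays (gap over range 0.643), and on the same array, the dimmest of all, SDHB was 8.32 against 10.41 to 11.41 (0.678) and SDHD was 10.72 against 11.72 to 12.22 (0.665). COX6A2 at day 5 replicate 6 was 10.99 against 5.61 to 6.86 (0.768). COX6C at day 7 replicate 4 was 12.77 against 11.83 to 12.17 (0.631), and COX7B at day 5 replicate 3 was 11.25 against 9.91 to 10.38 (0.649). NDUFA1 at day 7 replicate 3 was 13.83 against 14.48 to 14.84 (0.643). NDUFV2 at pre-irradiation replicate 5, scanned apart from the other pre-irradiation arrays, was 11.51 against 11.92 to 12.08 (0.726).

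In the medians of complexes, complex II lay low in animal 2 on both later days, at −1.22 against −0.49 to −0.13 on the other day 5 arrays (0.667) and at −1.49 against −0.27 to 0.02 on the other day 7 arrays (0.808). Complex III at day 7 replicate 4 was 0.34 against −0.74 to −0.29 (0.582).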

How the results depend on the processing

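On the day it was called, each subunit gene had a negative change under all alternatives tried. These genes were picked as lower in the same arrays, so their sign is no separate support. Over all 63 genes, quantile normalization left 47, 46 and 40 with negative changes on days 3, 5 and 7. The median change stayed below 0 on these days, while the number called depended on the processing, and the cause was not tested. At day 3, 5 genes became 3 with 75th percentile scaling, 3 with quantile normalization, 1 with normexp background correction, 3 with no filter on dim probes, 9 with a filter on every array of 1 group, 8 by any probe of a gene, and 0 with the slide block or the scan session block. The share of all probes lower in these fits was 7.85%, 7.54%, 0.651%, 4.14%, 10.1%, 8.08%, 0% and 0.0998%, in that order. At day 5, 13 became 8 with quantile normalization, 1 with normexp and 0 with the scan session block, beside 8.44%, 0.952% and 1.27% of all probes. In scan session 2 alone, the median change was −0.37 at day 3 and −0.41 at day 5. The deposited normalized values, which held 35 genes, gave 4, 7 and 10 calls on days 3, 5 and 7, beside 8.46%, 11% and 9.09% of all probes. At day 7, 12 became 5 with quantile normalization, 1 with normexp and 7 in scan session 1 alone, beside 4.88%, 1.22% and 5.35% of all probes. The scan session leaves 1 pre-irradiation array beside days 3 and 5, assumed to vary as the others do.

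With the replicate block, the animals being the same, calls were 1, 7 and 6, and 0 between day 3 and day 7. Leaving out 1 animal at a time gave 0 to 8, 5 to 13 and 5 to 13 calls. The share of all probes lower then ran from 2.05% to 7.88%, from 6.38% to 9.47% and from 4.7% to 6.4%. The counts moved by over 1.5 times at day 3 without animal 1 (0), 2 (1), 3 (3), 4 (2), 6 (8) or 7 (2), at day 5 without animal 1 (6), 2 (5) or 7 (5), and at day 7 without animal 1 (5), 2 (7), 5 (7) or 7 (5). Without the dim day 7 replicate 2 alone, 10 genes were called. COX7B was called at day 7 under all 21 settings, and SDHC, ATP5E, COX7C and NDUFA2 under 20. Between day 3 and day 7 the count was 1 with all groups in 1 fit, and the median over the genes, −0.06, turned to 0.10 with quantile normalization, 0.10 with the slide block, 0.0149 with the scan session block, 0.0149 in session 2 alone and 0.00524 without day 7 replicate 2. Leaving out 1 animal at a time, it ran from −0.218 to −0.00767. The slide block could not be fitted at day 5, and session 1 alone could not be run for day 3 or day 5. Session 2 alone and the fit without day 7 replicate 2 were chosen after seeing the data. Normexp moved the median of all probes at day 5 from 0.02 to 0.16. Arrays carry no read depth, and their number, 4 at day 3, limits the precision.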
